A study of Mus musculus with 12 samples.

Results

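The protocadherins are the largest family of cadherin-type adhesion proteins, and their messenger RNAs were followed in primary mouse motoneuron cultures lacking mouse Smn1, with and without the kinase inhibitor R-Roscovitine. Members were all rows of the deposited tables whose gene symbol begins with Pcdh, which gave 37 of 39174 gene identifiers. They comprised 22 Pcdhb genes, 1 row for the Pcdha cluster, 1 row for the Pcdhg cluster and 13 non-clustered rows. The cultures were of the FVB strain, and every culture carried the human SMN2 transgene. There were 4 groups of 3 libraries: Smn-/-;SMN2 cultures (called Smn-null here) given 0.5 µM R-Roscovitine, Smn-/-;SMN2 cultures left untreated, Smn+/+;SMN2 cultures (called control here) given 0.5 µM R-Roscovitine, and Smn+/+;SMN2 cultures left untreated. Smn-/-;SMN2 is a model of spinal muscular atrophy, in which motoneurons are short of the SMN protein and live on what SMN2 supplies. R-Roscovitine inhibits cyclin-dependent kinases and also acts on presynaptic calcium channels, and the study asked what it does to Smn-null motoneurons. Whether the libraries of a group came from separate embryos or preparations is not stated in the labels, so a p-value here reflects library-to-library spread, which may be technical.

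Clustered protocadherins lie in 3 tandem arrays on mouse chromosome 18. In Pcdha and Pcdhg, each variable exon has its own promoter and is spliced to constant exons shared by the whole array, whereas each Pcdhb gene is a single exon that encodes a whole protein. A neuron switches on a small and partly random set of these promoters, a choice that depends on CTCF and cohesin, and the resulting combination of adhesive surfaces lets its branches tell self from non-self. Non-clustered protocadherins of the delta group are encoded singly on several chromosomes, mark subsets of neurons, and act in axon growth, sorting and synapse formation. The delta-1 members share a cytoplasmic motif that binds protein phosphatase 1, and several delta-2 members recruit the WAVE complex, which drives actin branching.

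The depth read from the low values was 19.5 to 25.2 M reads in Smn-null libraries and 23.3 to 28.7 M reads in control libraries. Smn1 stood at 5.04 to 8.58 FPKM (fragments per kilobase of transcript, scaled to sequencing depth) in Smn-null libraries and at 30.9 to 51.2 FPKM in control libraries, so every library matched its genotype label. Of 11 motoneuron markers in the tables, 6 were below 1 FPKM in every library, among them Chat and Mnx1, which define cholinergic motoneurons, while the 11 pan-neuronal markers summed to 729 to 1375 FPKM. The pan-neuronal sum was 852 to 1095 FPKM in treated Smn-null, 729 to 878 in untreated Smn-null, 939 to 1375 in treated control and 866 to 1296 in untreated control libraries. The astroglial sum over 12 markers ran the other way, at 175 to 401 FPKM in treated Smn-null, 201 to 382 in untreated Smn-null, 107 to 151 in treated control and 104 to 166 in untreated control libraries. Sums of 13 neural progenitor markers (2197 to 3973 FPKM) and 4 smooth muscle markers (2049 to 3607 FPKM) were above the pan-neuronal sum in every library. Most of the progenitor sum was Vim, at 1852 to 3278 FPKM. Most of the smooth muscle sum was Acta2, at 1428 to 2625 FPKM, while Myh11 stayed below 1 FPKM in every library. These sums therefore rest on single genes and do not rank the cell types. Of the 13 progenitor markers, 11 had a higher averaged log2 level in Smn-null than in control libraries, as had 7239 of all 14982 tested genes. The sum of 14 interneuron markers was 157 to 241 FPKM in treated and 147 to 174 in untreated Smn-null libraries. It was 235 to 364 FPKM in treated and 210 to 345 in untreated control libraries. Of 12 tested interneuron markers, 10 were lower in Smn-null libraries by averaged log2 level and 2 higher, against 7743 of all tested genes lower. Library 1 had the highest pan-neuronal sum in each of the 4 groups. Control library 2 held 89.0 FPKM of fibroblast markers with R-Roscovitine and 88.7 without it, against at most 29.1 in any other library. Most of this was Col1a1, at 63.2 and 63.1 FPKM, and Col1a2, at 21.9 and 21.7 FPKM. Dcn, Lum and Col3a1 were instead highest in Smn-null library 1 in both treatments, Dcn at 5.52 and 5.27 FPKM. Pdgfrb and Foxc1 stayed below 1 FPKM in every library. In bulk RNA, fewer cells of a type and less RNA per cell cannot be told apart, and the part of cell composition in the differences below was not tested.

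The rows differ in what they measure. The Pcdha row, named Pcdha2 in the files (ENSMUSG00000007440), spans chr18:36930285-37187657 on GRCm38 and overlaps all 14 Pcdha genes of the GENCODE M21 annotation. The Pcdhg row, named Pcdhga9 (ENSMUSG00000023036), spans chr18:37674335-37841873 and overlaps all 22 Pcdhg genes. Of these, 20 start within the row or just before it, and the others start further upstream. Each row is taken here for its array. The annotation release behind the rows is not known, so which transcripts each value holds is open, and single alpha or gamma isoforms, the C-type isoforms included, could not be told apart. Both arrays lie on the plus strand, and each row spans variable and constant exons alike. The 22 Pcdhb genes have rows of their own. Of 50-base stretches of their transcripts, 88.7% to 100% occur in no other gene for 21 of them, whereas for Pcdhb12 the share was 35.8%, the remainder being shared most often with Gm37446, so the level of Pcdhb12 is uncertain.

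The Pcdhg array was the most abundant protocadherin row in all 4 groups. It averaged 154 ± 9.92 FPKM in treated Smn-null, 143 ± 20.4 in untreated Smn-null, 122 ± 11.8 in treated control and 131 ± 11.7 in untreated control libraries (SD, n = 3 each). The Pcdha array followed, at 35.2 ± 3.08, 32.7 ± 4.58, 48.4 ± 13.1 and 39.3 ± 2.49 FPKM in the same order of groups. The summed FPKM of the 22 Pcdhb genes came close to that of Pcdha, at 35.6 ± 4.69, 31.2 ± 3.99, 39.6 ± 10.4 and 35.0 ± 3.78. All 37 rows together summed to 331 ± 6.43 FPKM in treated Smn-null, 301 ± 21.3 in untreated Smn-null, 330 ± 24.1 in treated control and 325 ± 31.2 in untreated control libraries. The single libraries of the 4 groups overlapped in this total, which ran from 324 to 337 FPKM in treated Smn-null, 284 to 325 in untreated Smn-null, 315 to 358 in treated control and 306 to 361 in untreated control libraries. Of the 37 rows, 28 reached 1 FPKM in at least 3 of the 12 libraries and were tested: 17 Pcdhb genes, 9 non-clustered genes and both array rows. The other 9 were Pcdhb1, Pcdhb4, Pcdhb9, Pcdhb13, Pcdhb21, Pcdh12, Pcdh15, Pcdh20 and a second Pcdh15 entry, and none of them exceeded 1.51 FPKM in any library.

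**Figure D1:**
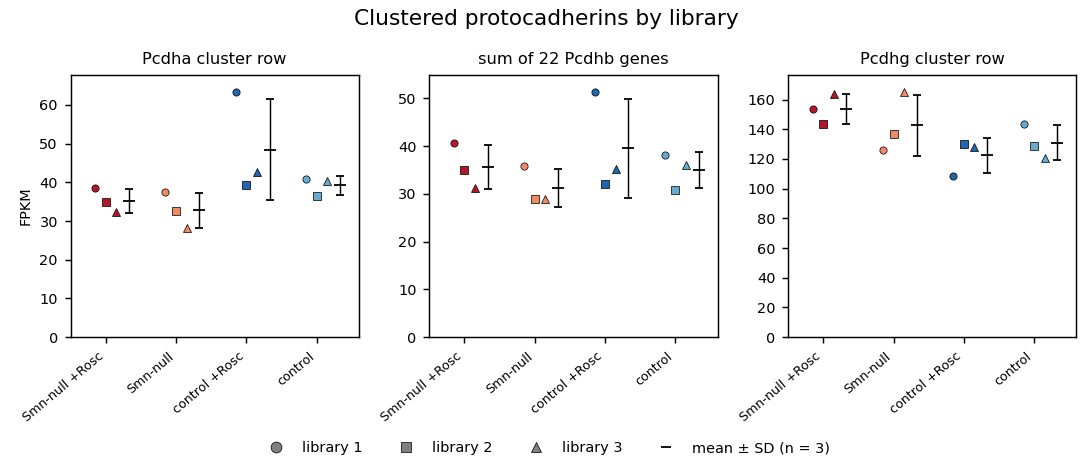
FPKM of the Pcdha row, the sum of 22 Pcdhb genes and the Pcdhg row in each of 12 libraries, by group, with mean and SD (n = 3). The Pcdhg row lies between 109 and 165 FPKM in every library, and library 1 of the treated control group stands highest for Pcdha and Pcdhb and lowest for Pcdhg.

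Among the non-clustered genes, 9 were expressed above 2 FPKM in every library, 4 of them delta-1 (Pcdh1, Pcdh7, Pcdh9 and Pcdh11x) and 5 delta-2 (Pcdh8, Pcdh10, Pcdh17, Pcdh18 and Pcdh19). By mean over the 12 libraries Pcdh11x was the highest and Pcdh8 the lowest, and the 7 genes between them lay within 9.05 to 15.1 FPKM. Neighbours in that middle order, such as Pcdh10 and Pcdh7, overlapped in their libraries. Upstream sequences are shown for 3 delta-2 genes whose genotype differences ran in opposite directions, the Smn-null mean being above control for Pcdh10 and below it for Pcdh17 and Pcdh19. Each run is the 250 bases before the RefSeq transcription start on GRCm38.p6, 5′ to 3′ on the gene's strand, at chr3:45378148-45378397 (plus) for Pcdh10, chr14:84443313-84443562 (plus) for Pcdh17 and chrX:133688994-133689243 (minus) for Pcdh19. Capitals mark the CCAAT box, as CCAAT or its reverse complement ATTGG.
Pcdh10: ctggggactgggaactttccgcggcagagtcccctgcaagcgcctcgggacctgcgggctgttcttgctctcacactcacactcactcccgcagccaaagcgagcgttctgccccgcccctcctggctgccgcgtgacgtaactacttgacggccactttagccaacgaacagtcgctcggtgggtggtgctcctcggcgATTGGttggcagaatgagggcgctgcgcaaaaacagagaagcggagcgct
Pcdh17: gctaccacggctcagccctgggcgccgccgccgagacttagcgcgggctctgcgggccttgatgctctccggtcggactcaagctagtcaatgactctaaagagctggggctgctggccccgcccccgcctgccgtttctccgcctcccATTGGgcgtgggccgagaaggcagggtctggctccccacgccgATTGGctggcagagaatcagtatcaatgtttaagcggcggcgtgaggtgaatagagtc
Pcdh19: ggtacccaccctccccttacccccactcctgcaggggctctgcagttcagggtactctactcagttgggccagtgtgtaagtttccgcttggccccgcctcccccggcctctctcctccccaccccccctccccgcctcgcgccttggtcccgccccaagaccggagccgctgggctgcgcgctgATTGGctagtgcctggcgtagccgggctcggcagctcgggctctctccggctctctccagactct
RefSeq windows were examined for 9 non-clustered genes, 10 windows in all since Pcdh9 has 2 that overlap. Pcdh1, Pcdh11x and Pcdh12 were not included, so the counts below do not cover every non-clustered gene. A CCAAT box on either strand occurred in 9 of these 10 windows and in 33.8% of all 32851 windows of that length. A GC box (GGGCGG or CCGCCC) occurred in 4 of 10, against 32.7% of all windows. The TATA box (TATAAA or TTTATA) occurred in 2 of 10, against 12.4%. Among these 10 windows, only that of Pcdh7 had no CCAAT box.

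Pcdh11x, an X-linked delta-1 protocadherin (ENSMUSG00000034755, chrX:120290259-120910619, plus strand), was the clearest difference between genotypes. Its level was 15.3, 21.5 and 16.8 FPKM in treated Smn-null cultures and 12.2, 15.3 and 14.8 FPKM in untreated Smn-null cultures, against 26.1, 25.9 and 22.1 FPKM in treated control cultures and 26.6, 21.2 and 20.1 FPKM in untreated control cultures. Every Smn-null value lay below every control value of the same treatment, and Pcdh11x was the only one of the 28 tested members of which this held. Over both treatments it averaged 16.0 ± 3.07 FPKM in Smn-null and 23.7 ± 2.85 FPKM in control libraries (SD, n = 6 each), or 67.5% of the control mean. On the log2(scaled FPKM + 1) scale the averaged difference was -0.52 ± 0.11 (SE), with an adjusted p of 0.0241 in limma, past the threshold of 0.05, so Pcdh11x fell in Smn-null cultures in that fit. Taken singly, the difference was -0.60 ± 0.15 without R-Roscovitine (adjusted p = 0.217) and -0.44 ± 0.15 with it (adjusted p = 0.255), neither past the threshold. The call did not outlast the pairing of libraries: same-numbered treated and untreated libraries of a genotype deviated together, and with 1 mean for each such pair the adjusted p was 0.179, or 0.0658 with the pair as a random effect. It was also lost on leaving out any of 6 single libraries, which were treated Smn-null 1 and 3, untreated Smn-null 1 and 3, treated control 1 and untreated control 2 (adjusted p 0.0545 to 0.0773). Without control library 1 in both treatments the adjusted p was 0.0698 (difference -0.45), and without control library 2 in both treatments it was 0.0717 (difference -0.50).

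The other delta-1 genes divided. Pcdh1, an epithelial and neural adhesion protein (ENSMUSG00000051375, chr18:38185915-38212053, minus strand), had 12.6, 13.2 and 8.70 FPKM in treated Smn-null, 9.45, 9.36 and 7.87 in untreated Smn-null, 16.3, 16.7 and 10.8 in treated control and 22.2, 14.2 and 10.4 in untreated control cultures. Untreated Smn-null values all lay below the untreated control values. The difference without treatment was -0.65 ± 0.24 (adjusted p = 0.281). Pcdh9, the delta-1 gene with the longest locus here at 873221 bases (ENSMUSG00000055421, chromosome 14), had 10.6, 10.7 and 10.8 FPKM in treated Smn-null, 8.71, 8.41 and 10.4 in untreated Smn-null, 19.1, 10.9 and 11.8 in treated control and 15.1, 10.2 and 11.5 in untreated control cultures. The treated genotypes did not overlap but came within 0.1 FPKM of each other, and control library 1 was far above the rest in both treatments. Pcdh7, known for binding the phosphatase inhibitor SET, varied least: it had 15.3, 12.1 and 14.1 FPKM in treated Smn-null, 14.0, 14.3 and 13.8 in untreated Smn-null, 13.5, 12.3 and 13.5 in treated control and 15.4, 12.9 and 13.3 in untreated control cultures. Its averaged genotype difference was 0.07 ± 0.09 (adjusted p = 0.651).

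**Figure D2:**
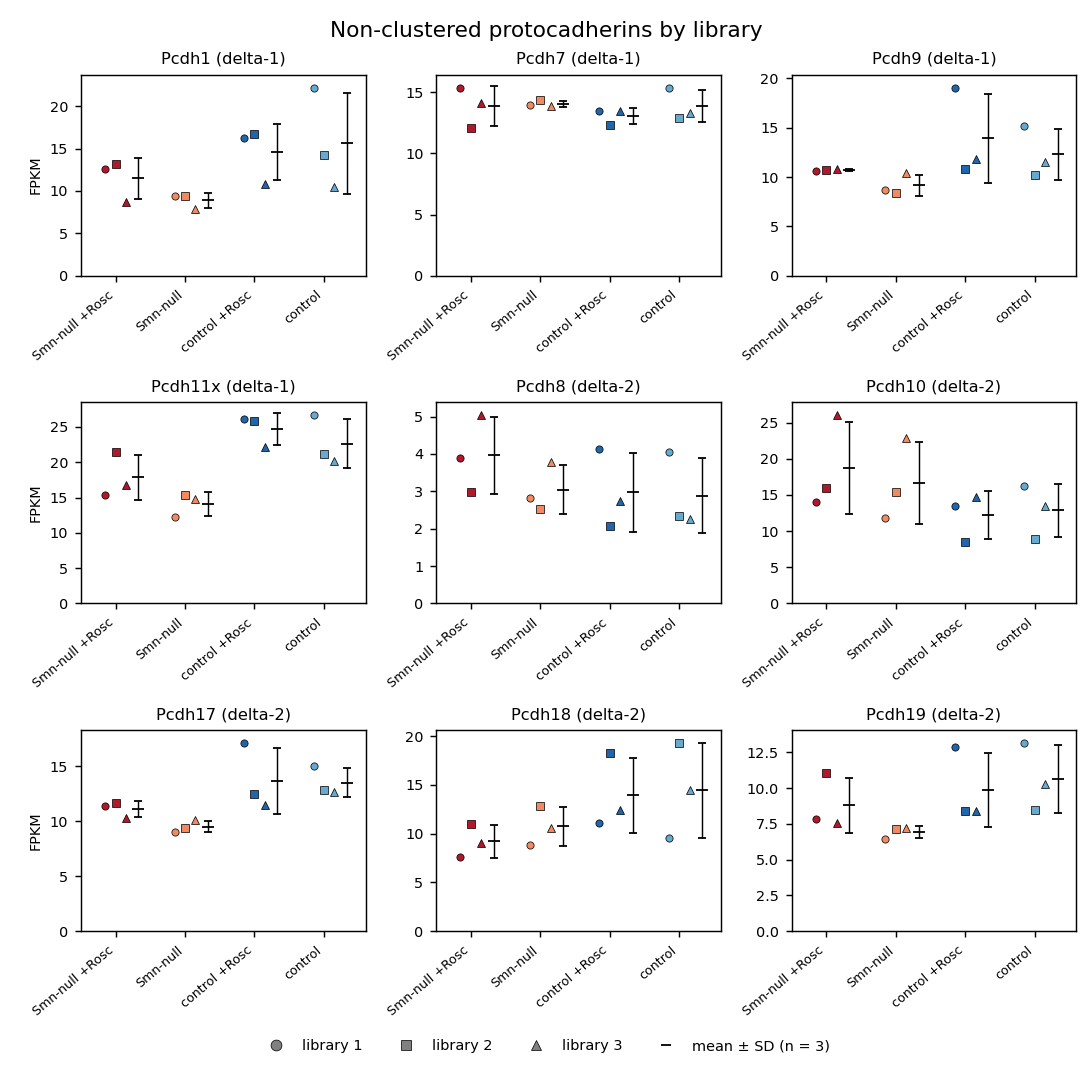
FPKM of the 9 non-clustered protocadherins above 2 FPKM in each of 12 libraries, by group, with mean and SD (n = 3). Pcdh11x in untreated Smn-null cultures lies at 12.2 to 15.3 FPKM, below all untreated control values, whereas Pcdh7 overlaps throughout and Pcdh18 is highest in control library 2.

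Among delta-2 genes, Pcdh17, which acts in axon extension and presynaptic assembly (ENSMUSG00000035566, chr14:84443563-84537060, plus strand), had 11.4, 11.7 and 10.3 FPKM in treated Smn-null, 9.07, 9.42 and 10.1 in untreated Smn-null, 17.1, 12.5 and 11.5 in treated control and 15.1, 12.9 and 12.7 in untreated control cultures. The untreated genotypes did not overlap, while 1 treated Smn-null library passed the lowest treated control library. Its averaged difference of -0.33 ± 0.10 came nearest to the threshold after Pcdh11x, with an adjusted p of 0.0801. Pcdh19, the X-linked gene mutated in a form of human epilepsy (ENSMUSG00000051323), had 7.83, 11.02 and 7.56 FPKM in treated Smn-null, 6.42, 7.13 and 7.19 in untreated Smn-null, 12.8, 8.43 and 8.36 in treated control and 13.1, 8.47 and 10.3 in untreated control cultures. It too separated the genotypes only without treatment, at -0.50 ± 0.19 (adjusted p = 0.282), against -0.13 ± 0.19 with R-Roscovitine (adjusted p = 0.806), and the test of that contrast, the interaction, gave 0.37 ± 0.27 (adjusted p = 0.9999).

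Pcdh10, which recruits the WAVE complex and guides growing axons (ENSMUSG00000049100, chr3:45378398-45434566, plus strand), had higher mean values in Smn-null than in control cultures in both treatments. It had 14.1, 16.0 and 26.0 FPKM in treated Smn-null, 11.7, 15.4 and 22.8 in untreated Smn-null, 13.4, 8.47 and 14.7 in treated control and 16.2, 8.94 and 13.5 in untreated control cultures. The genotypes overlapped in both treatments, Smn-null library 3 being the highest and control library 2 the lowest, each in both treatments. The averaged difference was 0.48 ± 0.20 (adjusted p = 0.166). Pcdh18 (ENSMUSG00000037892, chr3:49743296-49757316, minus strand) had 7.65, 10.96 and 9.04 FPKM in treated Smn-null, 8.83, 12.9 and 10.5 in untreated Smn-null, 11.1, 18.3 and 12.4 in treated control and 9.57, 19.3 and 14.5 in untreated control cultures. Its highest values, 18.3 and 19.3 FPKM, came from control library 2. That library had 89.0 and 88.7 FPKM of fibroblast markers, mostly Col1a1 and Col1a2. The part of these markers in the result was not tested. The averaged difference was -0.42 ± 0.17 (adjusted p = 0.169). Pcdh8, an activity-induced protocadherin also called arcadlin, was the lowest of the delta-2 genes, with 3.89, 2.98 and 5.03 FPKM in treated Smn-null, 2.81, 2.53 and 3.79 in untreated Smn-null, 4.14, 2.06 and 2.73 in treated control and 4.04, 2.35 and 2.26 in untreated control cultures, and its averaged difference was 0.23 ± 0.16 (adjusted p = 0.434).

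The remaining non-clustered genes were scarcely detected. Pcdh15, a tip-link protein of sensory hair cells, ranged from 0.439 to 1.20 FPKM and Pcdh20 from 0.123 to 1.06 FPKM. The highest Pcdh20 value came from untreated Smn-null library 1, which stood at 1.06 FPKM against 0.315 and 0.352 FPKM in the other untreated Smn-null libraries. Pcdh12, an endothelial protocadherin, was listed at 0 in 8 of 12 libraries and reached 0.0472 FPKM. The second Pcdh15 entry, a locus of 472 bases within the first that is not in GENCODE M21, was listed at 0 in 11 of 12.

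In the Pcdha array the level was 38.5, 34.8 and 32.4 FPKM in treated Smn-null, 37.4, 32.6 and 28.2 in untreated Smn-null, 63.4, 39.3 and 42.6 in treated control and 40.9, 36.4 and 40.5 in untreated control cultures. The treated genotypes did not overlap, and treated control library 1 stood far above the rest. With treatment the genotype difference was -0.40 ± 0.17 (adjusted p = 0.344), and without it -0.22 ± 0.17 (adjusted p = 0.554). In the Pcdhg array the level was 154, 144 and 164 FPKM in treated Smn-null, 126, 137 and 165 in untreated Smn-null, 109, 130.4 and 128 in treated control and 144, 129 and 120.5 in untreated control cultures. Here the direction was the opposite: the treated Smn-null values lay above all treated control values, at 0.35 ± 0.13 (adjusted p = 0.285), while the untreated groups overlapped, at 0.16 ± 0.13 (adjusted p = 0.579). The averaged differences were -0.31 ± 0.12 for Pcdha (adjusted p = 0.138) and 0.25 ± 0.09 for Pcdhg (adjusted p = 0.120), so neither array was called. The ratio of the Pcdhg to the Pcdha level combines these directions. It was 3.99, 4.13 and 5.05 in treated Smn-null libraries, 3.37, 4.19 and 5.85 in untreated Smn-null libraries, 1.72, 3.32 and 3.00 in treated control libraries and 3.51, 3.55 and 2.98 in untreated control libraries. The treated genotypes did not overlap in this ratio, and untreated Smn-null library 1 fell among the untreated control libraries. The treated separation follows from the Pcdha and Pcdhg levels above, which were apart in opposite directions, so it adds no separate evidence.

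The Pcdhb genes were mostly lower than the tested non-clustered genes. Their means over 12 libraries ran from 0.0874 FPKM for Pcdhb1 to 4.35 FPKM for Pcdhb17, with a median of 1.45 FPKM. Pcdhb17 was the highest Pcdhb gene in all 12 libraries, at 5.54, 3.77 and 3.19 FPKM in treated Smn-null, 4.18, 3.21 and 2.59 in untreated Smn-null, 8.00, 4.50 and 4.03 in treated control and 4.76, 4.14 and 4.26 in untreated control cultures. Its genotype groups overlapped in both treatments, with library 1 the highest of every group. Next by mean came Pcdhb18, at 2.13 to 4.27 FPKM, and Pcdhb2, at 1.85 to 3.50 FPKM. The order of the 22 genes was much the same everywhere: Spearman's rho between libraries was 0.755 to 0.954 with a median of 0.903, a description over 22 genes that share a library, gene lengths and read assignment. Their levels did not follow position along the array, with a rho of 0.11 over 22 genes. At these levels precision is limited, since a Pcdhb gene rested on about 0 to 11 reads (Pcdhb1) up to about 193 to 717 reads (Pcdhb17) per library, and the authors' interval reached a median of 19.3% of the value to each side, against 6.59% for non-clustered genes.

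**Figure D3:**
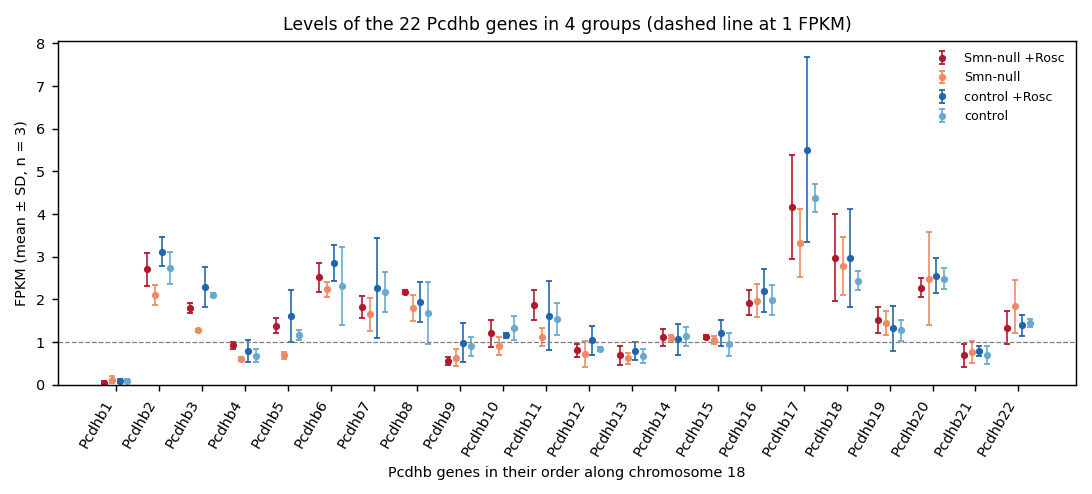
Mean FPKM with SD (n = 3) of the 22 Pcdhb genes in their order along chromosome 18, by group, with a dashed line at 1 FPKM. Pcdhb17 is the highest gene in all 4 groups, Pcdhb1 is near 0, and in Pcdhb2, Pcdhb3 and Pcdhb5 every untreated Smn-null value lies below every untreated control value.

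In untreated cultures Pcdhb3, Pcdhb5 and Pcdhb2 were the Pcdhb genes whose genotypes did not overlap, and the differences of Pcdhb3 and Pcdhb5 had the lowest p among Pcdhb genes. Pcdhb3 (chromosome 18, ENSMUSG00000045498) had 1.94, 1.73 and 1.75 FPKM in treated Smn-null, 1.24, 1.30 and 1.29 in untreated Smn-null, 2.48, 1.76 and 2.65 in treated control and 2.06, 2.10 and 2.16 in untreated control cultures. The untreated groups were tight and apart, at -0.42 ± 0.14 (adjusted p = 0.246), and the treated groups differed by -0.21 ± 0.14 (adjusted p = 0.561). Pcdhb5 (ENSMUSG00000063687) had 1.56, 1.22 and 1.36 FPKM in treated Smn-null, 0.731, 0.737 and 0.597 in untreated Smn-null, 2.23, 1.001 and 1.61 in treated control and 1.30, 1.14 and 1.08 in untreated control cultures. Its untreated Smn-null values lay below those of every other group. The difference between untreated genotypes was -0.34 ± 0.17 (adjusted p = 0.389). Pcdhb22 went the other way without treatment, with 2.24, 1.13 and 2.16 FPKM in untreated Smn-null and 1.56, 1.43 and 1.36 FPKM in untreated control cultures, which overlapped, at 0.22 ± 0.20 (adjusted p = 0.625).

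Counted over all tested members, 17 of 28 had a lower mean in untreated Smn-null than in untreated control cultures on the log2 scale (median -0.15), and 18 of 28 with R-Roscovitine in both (median -0.11), beside medians of -0.01 and -0.02 over all tested genes. Of all 14982 tested genes, 7644 were lower without R-Roscovitine and 7934 with it. In untreated cultures 0 of 28 members passed an adjusted p of 0.05 in limma, as did 0.00667% of the 14982 tested genes (1 gene, Smn1). At an unadjusted p under 0.05, 5 members were lower in Smn-null cultures (Pcdh11x, Pcdhb3, Pcdh17, Pcdh1 and Pcdh19), against 6.96% of all genes, and 0 were higher, against 7.16%. The untreated genotypes did not overlap for 7 members, all lower in Smn-null cultures (Pcdh1, Pcdh11x, Pcdh17, Pcdh19, Pcdhb2, Pcdhb3 and Pcdhb5), against 12.5% of all genes, and for 0 that were higher, against 7.78%. With R-Roscovitine in both genotypes, again 0 of 28 passed, against 0.00667%. At an unadjusted p under 0.05, 2 members were lower (Pcdh11x and Pcdha2, background 4.91%) and 1 was higher (Pcdhga9, background 8.04%), and the groups did not overlap for 4 lower members (Pcdh11x, Pcdh18, Pcdh9 and Pcdha2, background 8.87%) and 1 higher member (Pcdhga9, background 8.9%). Non-overlap in both treatments held for 1 lower member, Pcdh11x, against 2.86% of all genes, and for 0 higher members, against 2.47%.

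Averaged over treatment, 1 of 28 members passed (Pcdh11x, lower), against 4.83% of all genes in either direction, 3.03% higher and 1.8% lower, so the share of members called was near the background. With 1 mean for each same-numbered pair, 0 of 28 members and 0.00667% of all genes passed, and leaving out treated Smn-null library 1 or untreated Smn-null library 3 cut the share of all genes to 0.04%, with 0 members called. At an unadjusted p under 0.05, 8 members were lower (Pcdh11x, Pcdh17, Pcdhb3, Pcdh1, Pcdha2, Pcdh18, Pcdh9 and Pcdh19), against 11.3% of all genes, and 2 were higher (Pcdhga9 and Pcdh10), against 11.9%. These p-values come from the limma fit without a pair term, which counted paired libraries as independent, and may be too small. The median difference was -0.31 over the 9 non-clustered genes and -0.05 over the 17 Pcdhb genes, beside -0.01 over all tested genes, and without control library 1 in both treatments the median of the non-clustered genes was -0.15. Pcdh7, Pcdh8 and Pcdh10 were the non-clustered genes with a positive difference. The delta-1 genes had a median of -0.40 (4 genes) and the delta-2 genes of -0.31 (5 genes).

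**Figure D4:**
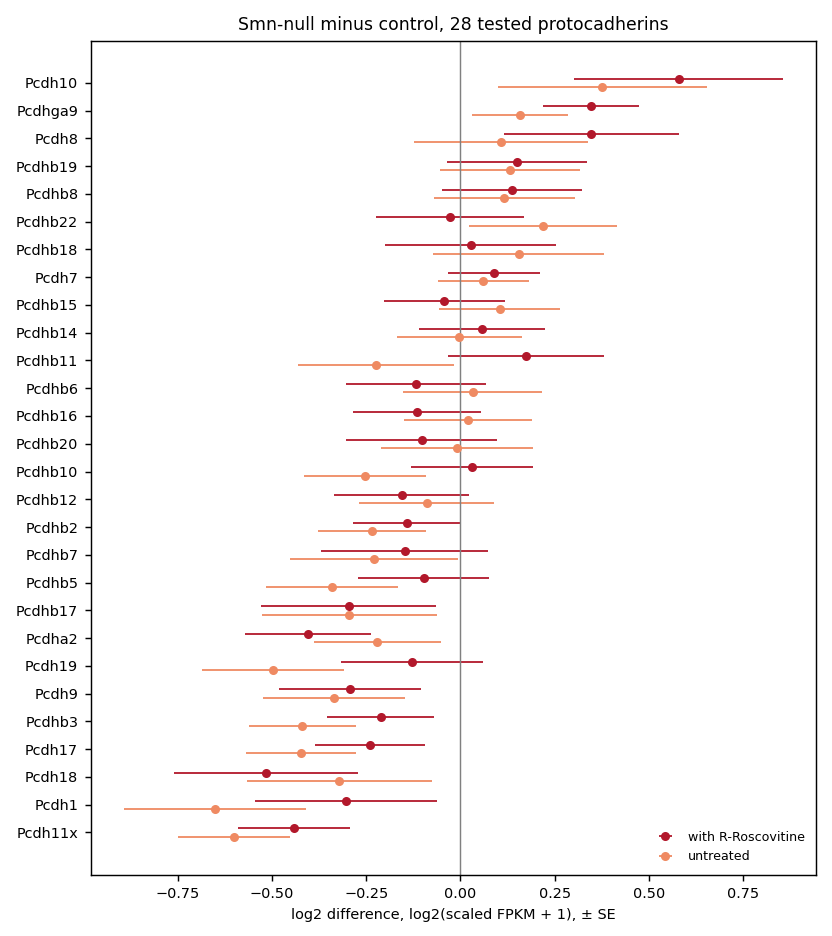
Difference of Smn-null minus control on the log2(scaled FPKM + 1) scale with SE for the 28 tested protocadherins, with R-Roscovitine and untreated, ordered by the averaged difference. Pcdh11x, at -0.44 with and -0.60 without R-Roscovitine, has the lowest averaged difference and Pcdh10, at 0.58 and 0.38, the highest, and most Pcdhb genes sit near 0.

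R-Roscovitine moved no protocadherin past the threshold in either genotype. In Smn-null cultures 0 of 28 members had an adjusted p under 0.05 in limma, against 0% of all genes, and in control cultures likewise 0 of 28, against 0%. Short of that threshold, 23 of 28 members had a higher mean in treated than in untreated Smn-null cultures on the log2 scale. The same held for 7558 of all 14982 tested genes. For 7 members every treated Smn-null value exceeded every untreated one (Pcdh17, Pcdh19, Pcdh9, Pcdhb11, Pcdhb2, Pcdhb3 and Pcdhb5), against 6.17% of all genes, and for 0 the reverse held, against 4.94%. Same-numbered libraries were higher with R-Roscovitine in 3 of 3 Smn-null pairs for 13 of 28 members, against 19.0% of all genes, and lower in 3 of 3 for 1 member, Pcdh18, against 17.2%. In control cultures 0 members separated upwards, against 1.48%, and 0 downwards, against 3.04%, while 5 were higher in 3 of 3 pairs (Pcdh11x, Pcdh9, Pcdha2, Pcdhb6 and Pcdhb8), against 10.6%. Pcdh11x, Pcdh9 and Pcdha2 were higher in 6 of 6 pairs over both genotypes, as were 2.52% of all genes, and 0 members were lower in 6 of 6, against 1.98%. The pan-neuronal marker sum moved in the same direction in Smn-null cultures, at 852 to 1095 FPKM with and 729 to 878 FPKM without R-Roscovitine, and its part in these counts was not tested.

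Pcdhb5 had the lowest p of the members in treated Smn-null cultures. Its difference was 0.50 ± 0.17, with a 95% interval of 0.12 to 0.87. In limma, fitted without a pair term, its unadjusted p was 0.0135 and its adjusted p 0.999. It was the only member with an unadjusted p under 0.05, against 1.53% of all genes higher and 0.881% lower (0 members). The pairs differed by 0.57, 0.36 and 0.56 in Smn-null and by 0.52, -0.09 and 0.33 in control cultures. Pcdhb3 followed at 0.30 ± 0.14 (adjusted p = 0.999) in Smn-null cultures and 0.09 ± 0.14 in control cultures (adjusted p = 0.9997). Pcdhb22 and Pcdh18 had the lowest p among members with lower values in treated Smn-null cultures, at -0.27 ± 0.20 and -0.20 ± 0.24 (adjusted p = 0.999 for both). Pcdhb22 had 1.73, 1.35 and 0.941 FPKM with R-Roscovitine and 2.24, 1.13 and 2.16 FPKM without it, and these overlapped.

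For Pcdh11x the R-Roscovitine difference was 0.31 ± 0.15 in Smn-null cultures, with a 95% interval of -0.01 to 0.63, and 0.15 ± 0.15 in control cultures, with a 95% interval of -0.17 to 0.47. The treated Smn-null values, at 15.3 to 21.5 FPKM, overlapped the untreated ones, at 12.2 to 15.3 FPKM. The interval of the interaction, -0.29 to 0.61, allows a larger change in either genotype. In control cultures the lowest p among higher members belonged to Pcdha2, at 0.29 ± 0.17 (adjusted p = 0.9997), and Pcdhb6, at 0.27 ± 0.18 (adjusted p = 0.9997). Pcdhb6 had 3.32, 2.49 and 2.76 FPKM in treated and 3.24, 1.43 and 2.26 FPKM in untreated control cultures. The pair difference of Pcdha2 in control cultures was 0.67 in library 1 and 0.11 and 0.09 in the others. Pcdhga9 and Pcdhb10 were slightly lower in treated control cultures, at -0.07 ± 0.13 and -0.08 ± 0.16 (adjusted p = 0.9997 for both), and Pcdhb10 had 1.21, 1.10 and 1.16 FPKM in treated and 1.65, 1.24 and 1.09 FPKM in untreated control cultures. The sign turned for Pcdhga9 without control library 1 and for Pcdhb10 without untreated control library 1.

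As groups, 14 of 17 tested Pcdhb genes had higher values with R-Roscovitine in Smn-null cultures (median difference 0.10) and 14 of 17 in control cultures (median 0.12), beside medians of 0.00 over all tested genes in both. Of all 14982 tested genes, 7558 were higher in Smn-null and 7608 in control cultures. The control count of Pcdhb genes rested on library 1: by pair, 16, 9 and 6 of the 17 were higher in control cultures, against 12, 13 and 10 in Smn-null cultures. Without control library 1 in both treatments, 8 of 17 were higher (median -0.01), and without the treated control library 1 alone 7 of 17. The 9 non-clustered genes had a median of 0.21 in Smn-null and 0.00 in control cultures. Their summed FPKM was 107 ± 6.01 in treated and 94.5 ± 8.73 in untreated Smn-null libraries, and 120.0 ± 13.2 in treated and 119.7 ± 16.1 in untreated control libraries (SD, n = 3 each). The interaction of genotype and R-Roscovitine called 0 of 28 members in limma, against 0% of all genes, and at an unadjusted p under 0.05 it held 0 members in either direction, against 1.03% of all genes higher and 0.874% lower. Its lowest p belonged to Pcdh19, given above, and Pcdhb11, at 0.40 ± 0.29 (adjusted p = 0.9999). Pcdhb11 had 2.19, 1.91 and 1.49 FPKM in treated Smn-null, 1.26, 1.24 and 0.880 in untreated Smn-null, 2.54, 1.24 and 1.08 in treated control and 1.96, 1.21 and 1.45 in untreated control cultures.

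**Figure D5:**
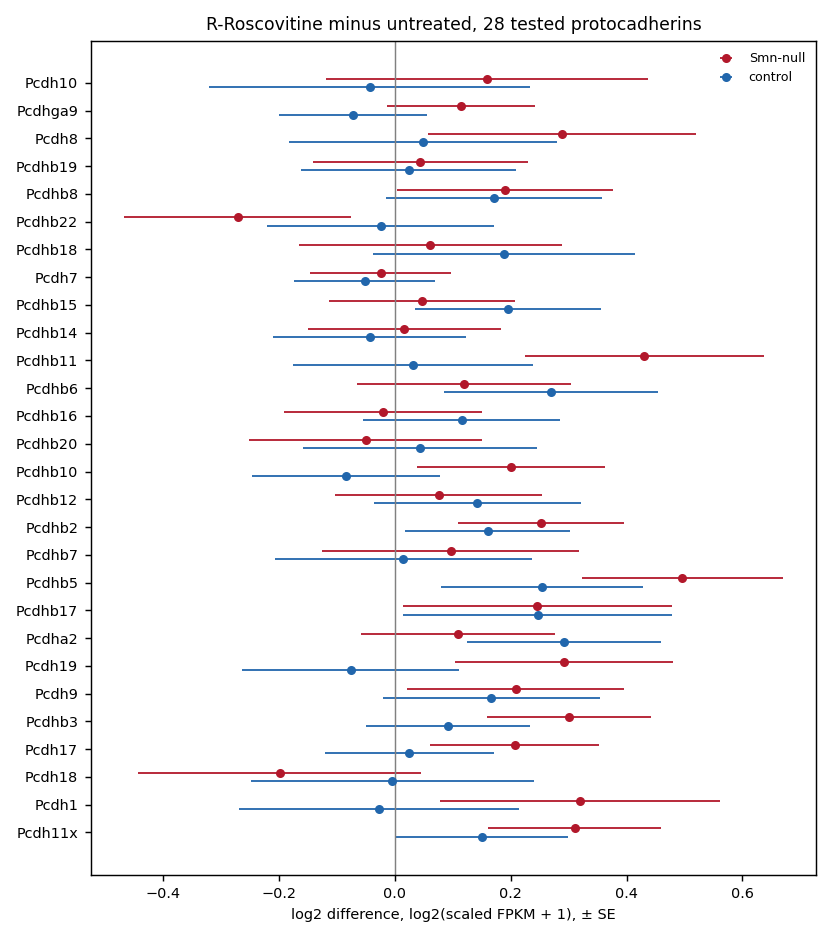
Difference of R-Roscovitine minus untreated on the log2(scaled FPKM + 1) scale with SE for the 28 tested protocadherins in Smn-null and control cultures, in the order used for the genotype differences. In Smn-null cultures 23 of 28 differences are above 0, the highest being Pcdhb5 at 0.50, and in control cultures 19 of 28 are above 0 (15 without control library 1), the highest being Pcdha2 at 0.29. Of all 14982 tested genes, 7558 are above 0 in Smn-null and 7608 in control cultures.

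Genes that work with protocadherins gave the following counts. Of 25 tested regulators of the clustered promoters, such as Ctcf, the cohesin subunit Rad21 and the repressor Smchd1, 0 passed in any of the 6 comparisons, with a median averaged genotype difference of -0.01. At an unadjusted p under 0.05, 4 regulators were higher and 0 lower in untreated Smn-null cultures, against 7.16% and 6.96% of all genes, and 3 were higher and 0 lower in the averaged comparison, against 11.9% and 11.3%. Of 30 tested intracellular partners and proteases, which include the WAVE complex subunit Nckap1 and the sheddase Adam10, 0 passed, and 5 were lower and 0 higher in Smn-null cultures at an unadjusted p under 0.05 in the averaged comparison, against 11.3% and 11.9% of all genes. Of 15 tested classical and related cadherins, 2 passed in that comparison, which called 4.83% of all genes, both lower in Smn-null cultures: Cdh3 at -0.96 ± 0.18 (adjusted p = 0.0191) and Cdh13 at -0.38 ± 0.10 (adjusted p = 0.0438). Of 10 tested large atypical cadherins, 1 passed, the planar polarity receptor Celsr1, higher in Smn-null cultures at 0.69 ± 0.14 (adjusted p = 0.0253). None of these 3 calls held with 1 mean for each same-numbered pair (adjusted p 0.169 for Cdh3, 0.217 for Cdh13 and 0.169 for Celsr1) or with the pair as a random effect (0.0523, 0.107 and 0.0765 in the same order).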

How the data were processed

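RNA sequencing of 12 libraries, 3 in each of 4 groups of genotype and treatment, was deposited as 1 gene table per library. Extraction used a Nucleospin kit and library preparation Lexogen's mRNA-Seq kit V2, per the labels' protocols. The GRCm38 build, Cufflinks 2.2.1, Trim Galore 0.4.0 and FastQC 0.10.1 are listed per the submitters' processing notes, and neither the annotation release nor the strand setting is known. Each deposited table gives FPKM per gene as computed by the authors, with an interval and a status. No counts were given, so no count model was used; 29.2% to 31.3% of low values were whole reads within 0.01 reads, enough for depth only. The 39196 lines hold 39174 identifiers; 19 on several lines, no member among them, were summed.

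FPKM were scaled by median-of-ratios factors and analysed as log2(scaled FPKM + 1), which understates changes of low genes. Genes at 1 FPKM or more in at least 3 libraries were tested, without small RNAs, 14982 in all. Limma 3.58.1 in R 4.3.3 (trend, two-sided) was fitted over 4 group means, with Benjamini-Hochberg adjustment over all tested genes and a threshold of 0.05, and checked on simulated data. Levels in the text are unscaled FPKM. Same-numbered treated and untreated libraries of a genotype deviated together (correlations 0.237 to 0.596). They were therefore taken as pairs in the counts of pairs and in alternative fits. The reported fit held no pair term, so its SE, intervals and p-values for R-Roscovitine and the interaction are unpaired. In the averaged genotype comparison it counted paired libraries as independent, so the averaged SE and p-values may be too small. The consensus correlation within pairs was 0.381 in the fit with a random pair effect. Across genotypes same-numbered libraries (-0.0566 to 0.322) did not all exceed 0.1, and they were not taken as pairs. The block for these pairs changed no treatment or interaction call.

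Values in every library are given for non-clustered members with a mean of at least 1 FPKM, the highest Pcdha, Pcdhb and Pcdhg members, and in each comparison the called members and the 2 higher and 2 lower members with the lowest p. C-type isoforms have no row of their own; Pcdhb18 and Pcdhb2 are given by range. Members and lists were chosen with earlier results of these data known. Python 3.11.15, pandas 2.3.3 and matplotlib 3.10.9 handled tables and figures. Alternatives are given in the closing section; those leaving out libraries 1 or 2 of a genotype in both treatments, and the random pair effect, were chosen after seeing the data.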

Additional observations from a re-analysis of the deposited data

How the results depend on the processing

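Of 568 single-gene values under 26 alternatives, 548 kept their direction and side of the threshold, and 190 of 206 counts and sums stayed within the limits set for them. The number of members called in the averaged genotype comparison, 1 in the reported fit, was 2 with a common FPKM sum (Pcdh17 added), 0 without the filter on low values, 5 with library weights (Pcdh10, Pcdh11x, Pcdh18, Pcdhb3 and Pcdhga9), 5 with a replicate block by number (Pcdh1, Pcdh11x, Pcdh17, Pcdh18 and Pcdha2), 0 with a replicate block by culture as 1 mean per pair, 0 with that block as a random effect, and 0 without control library 1 or without control library 2 in both treatments. Leaving out single libraries gave 0 to 1. In untreated cultures the number was 1 with library weights (Pcdh11x) and 1 with the replicate block by number (Pcdh1), against 0. The labels state no pairing by number across genotypes, where same-numbered libraries correlated at -0.0566 to 0.322. Whether that block applies is not known, and it was kept out of the reported fit. Counts over all genes moved too: the averaged comparison called 723 genes (454 higher, 269 lower in Smn-null), but 834 (327 higher, 507 lower) with a common FPKM sum, 1 without the filter, 2017 with library weights, 1772 with the block by number, 1 with pair means, 64 with the random pair effect, 64 without control library 1 in both treatments, 13 without control library 2 in both and 1249 without Smn-null library 2 in both. Leaving out 1 library gave 6 (treated Smn-null 1 or untreated Smn-null 3) to 1363 (treated Smn-null 2). With R-Roscovitine in control cultures, the difference of Pcdhga9 was -0.14 to 0.011 when single libraries were left out, turning without treated control library 1, and it was 0.067 without control library 1 in both treatments. For Pcdhb10 in control cultures it was -0.16 to 0.0027, turning without untreated control library 1. For the interaction of Pcdha2 it was -0.30 to 0.018, turning without treated control library 1. None of these was called. Fewer libraries leave fewer residual degrees of freedom, by the same number whichever single library is left out. The cause of these shifts was not tested. Depth limits the low members most, Pcdh12, Pcdh15, Pcdh20 and Pcdhb1 among them.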
